A study of Mus musculus with 2 samples.

Results

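Integrins, laminins and nidogens link muscle cells to the basement membrane, and their mRNAs were read here in diaphragm muscle of mouse embryos labelled wild type or RP58 knockout. The group was taken by gene symbol, as all alpha and beta integrin subunits, all laminin chains and both nidogens that carried a single symbol in the array annotation. This gave 36 genes of 18193, read by 77 probe sets, and each gene was read at its brightest probe set by the mean of both arrays. The group held 16 integrin alpha subunits, 8 integrin beta subunits, 10 laminin chains and 2 nidogens. There were 2 samples, both total RNA of E18.5 diaphragm from the C57/BL6 strain, 1 labelled RP58+/+ and 1 labelled RP58-/-, with no treatment named. RP58, now named Zbtb18, is a zinc finger repressor that muscle cells use during differentiation. The comparison asks how its loss alters muscle gene expression. How the knockout allele was made and how many embryos went into each sample are not given in the sources used here.

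A basement membrane is a thin sheet of matrix around each muscle fibre, nerve, vessel and epithelium. Laminins, trimers of an alpha, a beta and a gamma chain, form one of its networks, type IV collagen forms another, and nidogens bridge both. Integrins are alpha-beta pairs in the cell membrane that hold laminin, collagen or fibronectin outside the cell and connect through talin and kindlin to actin inside it. In skeletal muscle the main laminin carries the Lama2 chain, its main integrin is the alpha7 beta1 pair, and loss of Lama2 or Itga7 causes muscular dystrophy.

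Each value is a log2 RMA signal, and each difference is the array labelled knockout minus the array labelled wild type. With 1 array per genotype no difference has a replicate check, and neither a standard deviation nor a test can be given. A gene is called higher or lower when its difference reaches 1.5-fold, 0.58 on the log2 scale. The number of arrays limits the precision throughout. The only yardstick in these data is the spread of several probe sets of a gene, a pooled SD of 0.28 over 5675 genes, which covers neither embryos nor dissection. Skeletal muscle fibre genes were present in both samples, and 15 of 16 fibre markers were lower on the array labelled knockout. The single probe set of Zbtb18 read 8.91 in the sample labelled wild type and 9.21 in that labelled knockout, and where it lies relative to the deleted part is not given, so it does not check the labels. The samples also differed by -4.51 in Xist and by 4.99 in the Y-linked gene Eif2s3y, the pattern of a female sample labelled wild type and a male one labelled knockout, so genotype and sex cannot be told apart in any result. Scaling to 24 poly-A spike-in probe sets, whose median difference was -0.75, would add 0.75 to every difference, and directions here are therefore relative to the median over all genes, a difference of -0.0032.

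As a group, the integrin, laminin and nidogen genes differed little between the arrays. Of the 36 genes, 32 had a mean signal above the floor of 5.52, the 40th percentile of all probe sets. Among these 32, 2 were lower by at least 1.5-fold, Itgae and Lama2, and 0 were higher, with Itgae above the floor only through the sample labelled wild type. Over all 14093 genes above the floor, 6.51% were lower and 3.83% were higher by the same rule, so 2 of 32 (6.25%) is near the background. At 2-fold, Itgae alone was lower, against 2.31% of all genes, and 0 were higher, against 0.908%. The median difference was 0.04 for the 32 genes and -0.0032 for all genes. The median size of the difference, regardless of sign, was 0.22 for the 32 genes and 0.19 for all genes. A difference smaller than the probe set SD was found for 21 of 32 genes (65.6%) and for 64.8% of all genes. In whole muscle, fewer cells of a type and less RNA per cell cannot be told apart.

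**Figure D1:**
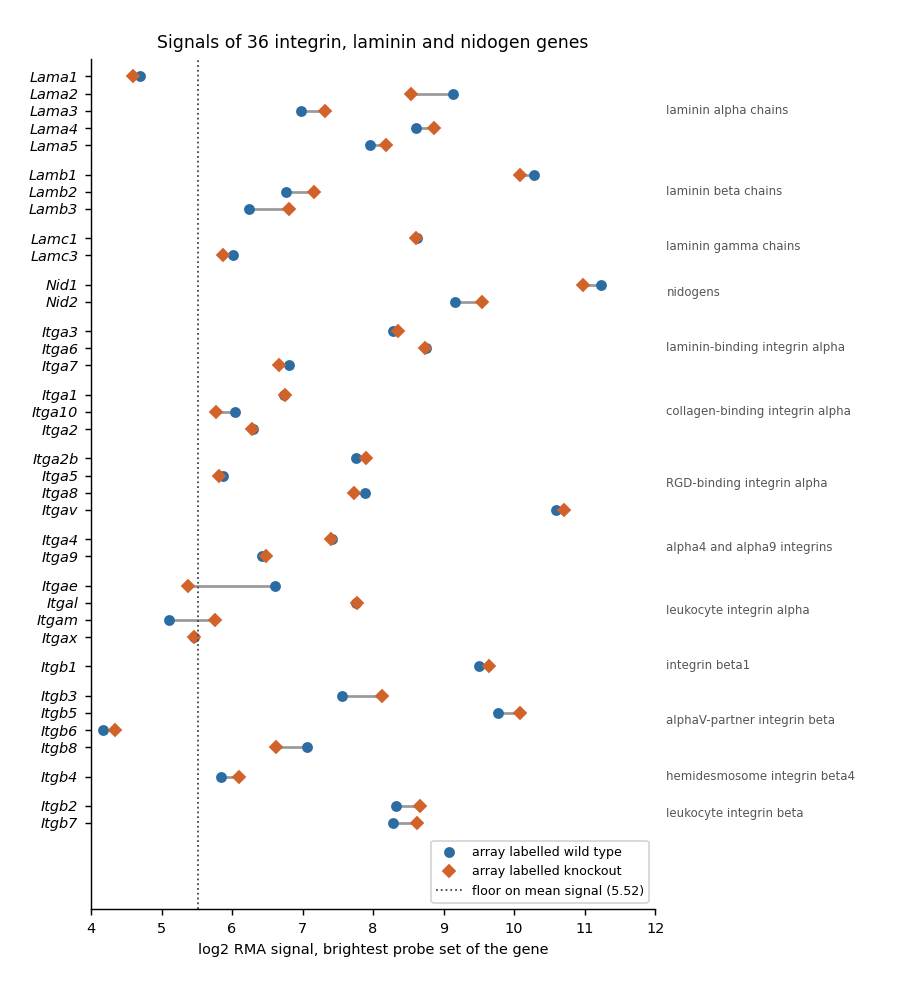
Log2 RMA signal of the brightest probe set of each of the 36 genes for the wild-type label (circles) and the knockout label (diamonds), grouped by role, with the floor on mean signal at 5.52. Most pairs of points nearly coincide, and the widest gap is that of Itgae, from 6.61 to 5.37.

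The laminin alpha chains went in different directions. Lama2, the alpha chain of the mature muscle fibre basement membrane, read 9.14 in the sample labelled wild type and 8.53 in that labelled knockout. The knockout array was lower by 1.52-fold (-0.60), just past the size rule, and only 6.10% of all genes had a lower difference. Its signal came from 1 probe set, so no other probe set of the gene bears on it, and the difference was -0.57, within the size rule, when all differences were centred by loess on mean signal.

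The 3 other alpha chains above the floor were on the other side of 0. Lama4, the chain of vessels, nerve and developing muscle, read 8.61 and 8.86 in the samples labelled wild type and knockout, a difference of 0.26. For Lama5, the chain of many epithelia and of the synaptic basement membrane, the signals were 7.95 and 8.19, a difference of 0.24, with 0.11 at another probe set. Lama3, the chain of epithelial anchoring laminin, had signals of 6.98 and 7.32, a difference of 0.34. None of these 3 reached 1.5-fold, and Lama4 and Lama5 lay within the probe set SD. Lama1, the chain of the early embryo, lay under the floor at 4.70 and 4.60.

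Among the beta chains, the widely expressed one was slightly lower and the other 2 were higher, all within the size rule. Lamb1, the usual partner of Lama2 in muscle, read 10.29 and 10.08 in the samples labelled wild type and knockout, a difference of -0.21. Its probe sets disagreed, with -0.29 and 0.37 at the others above the floor, and a mean of -0.04. Lamb2, a beta chain concentrated at neuromuscular junctions, read 6.76 and 7.17, a difference of 0.41 (1.33-fold higher). Lamb3, which pairs with Lama3 in epithelia, read 6.24 and 6.80, a difference of 0.56 (1.47-fold higher). That value lies just short of the size rule.

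The gamma chains differed little between the arrays at their brightest probe sets. Lamc1, the gamma chain of nearly all muscle laminins, read 8.63 and 8.60, a difference of -0.03. A second, dimmer probe set of Lamc1 read 6.32 and 5.70, a difference of -0.62 that passes the size rule, so the gene's mean difference was -0.32. Lamc3 read 6.02 and 5.87, a difference of -0.15. Over the 9 laminin chains above the floor the median was 0.24, with 5 above 0 and 4 below it. The median was 0.11 with no floor and -0.03 without probe sets ending in _s_at, _x_at or _a_at, so the class has no settled direction. Of the 3 chains of the fibre trimer, Lama2 alone passed the size rule at its brightest probe set.

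The 2 nidogens, which clamp laminin to the collagen network, differed in opposite directions. Nid1 read 11.24 and 10.98 in the samples labelled wild type and knockout, a difference of -0.25, and its second probe set above the floor gave -0.19. Nid2 read 9.16 and 9.54, a difference of 0.39 (1.31-fold higher), from 1 probe set. Neither passed the size rule, and the Nid1 difference was within the probe set SD.

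**Figure D2:**
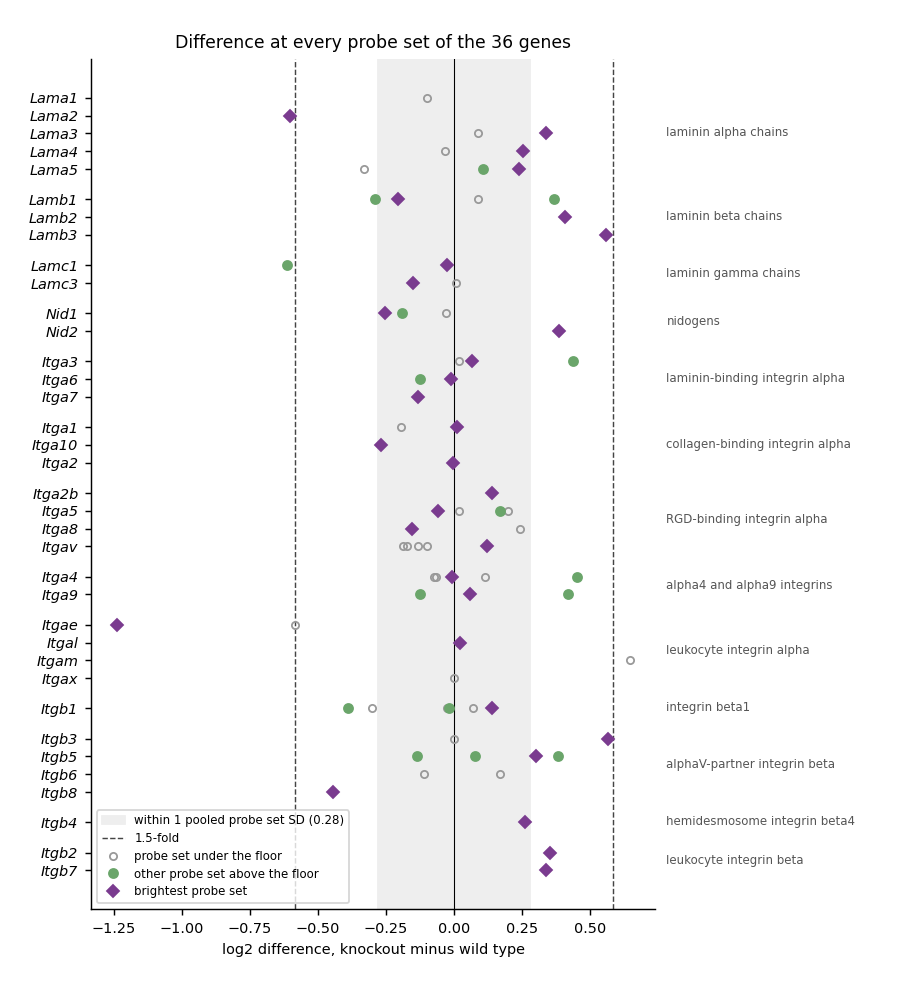
Log2 difference (knockout minus wild type) at each of the 77 probe sets of the 36 genes, with the brightest probe set as a diamond, other probe sets above the floor as filled circles and those under it as open circles. The grey band is 1 pooled probe set SD (0.28) on each side of 0 and the dashed lines mark 1.5-fold, past which lie the brightest probe sets of Itgae and Lama2, the second of Lamc1 and, under the floor, the second of Itgae and the probe set of Itgam.

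RP58 binds DNA at a site with the core ACATCTG, which contains an E-box hexamer of the kind that MyoD-type factors also use. Upstream sequence was taken from RefSeq's promoter windows on GRCm38.p6, and 23 of the 36 genes had an entry. The 250 bases before the start site were searched for ACATCTG on both strands, so for CAGATGT too. A match was present in 2 of 26 windows of these genes (7.69%) and in 3.71% of all 32851 windows of that length. The windows of Lama2, the lower laminin chain, and of the 2 genes with a match, Lamb2 and Itga5, are printed 5′ to 3′ in the direction of transcription, with the match in capitals.
Lama2: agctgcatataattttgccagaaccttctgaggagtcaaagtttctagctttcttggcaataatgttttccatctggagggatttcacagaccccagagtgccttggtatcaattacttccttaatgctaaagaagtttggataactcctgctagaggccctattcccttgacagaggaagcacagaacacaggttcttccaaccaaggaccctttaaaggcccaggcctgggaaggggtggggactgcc
Lamb2: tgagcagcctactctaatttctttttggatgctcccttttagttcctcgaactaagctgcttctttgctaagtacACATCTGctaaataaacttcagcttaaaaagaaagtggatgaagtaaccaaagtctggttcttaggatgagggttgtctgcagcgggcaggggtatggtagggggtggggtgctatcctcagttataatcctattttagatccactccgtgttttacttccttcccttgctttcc
Itga5: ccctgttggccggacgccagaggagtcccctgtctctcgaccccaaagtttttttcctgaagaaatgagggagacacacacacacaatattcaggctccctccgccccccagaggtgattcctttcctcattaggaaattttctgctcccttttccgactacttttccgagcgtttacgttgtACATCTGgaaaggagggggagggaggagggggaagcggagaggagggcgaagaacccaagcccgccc
The Lama2 window is chr10:27616943-27617192 on the minus strand, the Lamb2 window chr9:108479612-108479861 on the plus strand and the Itga5 window chr15:103366792-103367041 on the minus strand, all in GRCm38.p6. The match begins 175 bases before the start site of Lamb2 and 67 bases before that of Itga5. A match describes letters only and shows no binding. Lamb2 differed by 0.41, and Itga5 by -0.06 and 0.17 at its 2 probe sets above the floor, so Itga5 has no settled direction. The Lama2 window held no match, which speaks only of these letters in this window. Itga6, Itga7, Itgae, Itgal, Itgb2, Itgb3, Itgb4, Lama1, Lama3, Lama4, Lamc1, Lamc3 and Nid2 had no entry.

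Apart from Itgae, the integrin alpha subunits differed little. Of 14 above the floor, 13 (92.9%) had a difference smaller than the probe set SD, against 64.8% of all genes, and the median was -0.01. By the size rule 1 was lower (7.14%, against 6.51% of all genes) and 0 higher (against 3.83%). The share of lower genes is thus near the background. Among the receptors of laminin, Itga7, the partner of beta1 on muscle fibres, read 6.80 and 6.67 in the samples labelled wild type and knockout, a difference of -0.13. The only probe set of Itga7 ends in _a_at, so the gene dropped out when that kind was left out. Itga6, the laminin receptor of muscle progenitors, epithelia and nerve, read 8.75 and 8.74, a difference of -0.01, with -0.13 at its other probe set. Itga3, a laminin receptor of epithelia, read 8.28 and 8.35, a difference of 0.07, while a second probe set gave 0.44. At their brightest probe sets all 3 laminin-binding subunits were thus within the probe set SD. Of these, only Itga7 is named here as a receptor of muscle fibres, and it rests on 1 probe set.

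Receptors of collagen and fibronectin were also within the probe set SD at their brightest probe sets. The collagen-binding subunits differed by 0.01 for Itga1, by -0.0040 for Itga2 and by -0.27 for Itga10. Itgav, which binds the RGD motif of vitronectin and fibronectin together with several beta subunits, read 10.59 and 10.71, a difference of 0.12. Itga5, the main fibronectin receptor, read 5.87 and 5.81, and its 2 probe sets above the floor gave -0.06 and 0.17. Itga8, a nephronectin receptor of smooth muscle and mesenchyme, differed by -0.15, and Itga2b, the fibrinogen receptor of platelets, by 0.14. Itga4, the receptor for Vcam1 on leukocytes and developing muscle, read 7.42 and 7.41, a difference of -0.0081, with 0.45 at a dimmer probe set. Itga9, a related receptor for tenascin and Vcam1, gave 0.06, -0.12 and 0.42 at its 3 probe sets.

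Itgae had the most negative difference of the group. It encodes alphaE, which pairs with beta7 on lymphocytes within epithelia and on some dendritic and mast cells and binds E-cadherin. Its brightest probe set read 6.61 in the sample labelled wild type and 5.37 in that labelled knockout, a difference of -1.24. The knockout signal was under the floor, so the gene passed the filter through the sample labelled wild type. The floor of 5.52 lay 2.13-fold below the wild-type signal. That floor is a filter on mean signal, so 2.13-fold is not a lower limit of the difference. A second probe set, whose mean signal of 5.49 was just under the floor, read 5.79 and 5.20, 1.5-fold lower (-0.59). Both probe sets were therefore lower, the dimmer one by less. Itgal, the alpha subunit of the leukocyte receptor for Icam1, was at 7.75 and 7.78, a difference of 0.02. Itgam, the alpha subunit of myeloid cells, was under the floor at 5.11 and 5.76, and so was Itgax, a subunit of dendritic cells and macrophages, at 5.46 on both arrays.

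The beta subunits were mostly above 0, none past the size rule. Of 7 above the floor, 6 were above 0 at their brightest probe set (85.7%, against 49.4% of all genes) and 1 below it. The 6 include Itgb1 and Itgb5, whose probe sets lay on both sides of 0. Within the probe set SD were 2 of the 7 (28.6%, against 64.8% of all genes), and the median was 0.30. Itgb1, the common partner of laminin, collagen and fibronectin receptors, read 9.51 and 9.65, a difference of 0.14. Its other probe sets above the floor gave -0.02 and -0.39, for a mean of -0.09, so the gene has no settled direction.

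The subunits that pair with alphaV were farther from 0. Itgb3, the beta subunit of platelets, osteoclasts and vessels, read 7.57 and 8.13, a difference of 0.57 (1.48-fold higher), just short of the size rule and the highest value among the 32 genes. Its other probe set lay under the floor and gave 4.95 on both arrays. Itgb5, a vitronectin receptor subunit, read 9.78 and 10.08, a difference of 0.30, and its 4 probe sets ran from -0.14 to 0.38. Itgb8, which activates latent TGF-beta, was the only beta subunit below 0 at its brightest probe set, with 7.06 and 6.62, a difference of -0.44 (1.36-fold lower). Itgb6, an epithelial subunit, was under the floor at 4.16 and 4.33.

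The remaining beta subunits belong to leukocytes and epithelia. Itgb2, the subunit shared by Itgal, Itgam and Itgax, read 8.32 and 8.67, a difference of 0.35. Itgb7, the partner of Itgae, read 8.28 and 8.62, a difference of 0.34, opposite in sign to that of Itgae. Itgb4, the laminin receptor subunit of hemidesmosomes, read 5.84 and 6.10, a difference of 0.26. Each of these rests on 1 probe set.

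**Figure D3:**
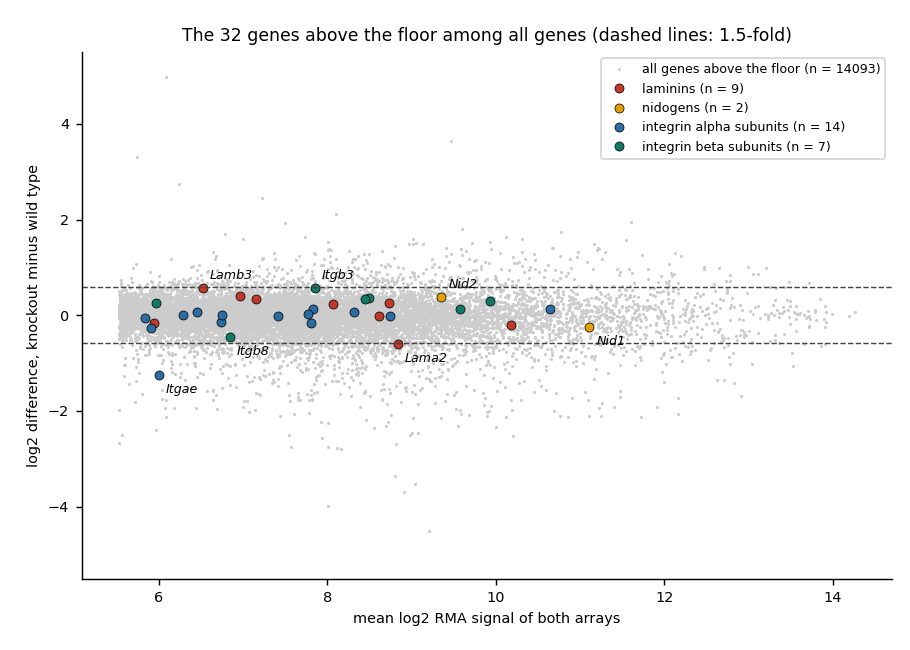
Log2 difference (knockout minus wild type) against the mean log2 RMA signal of both arrays for 14093 genes (grey), with the 9 laminins, 2 nidogens, 14 integrin alpha subunits and 7 integrin beta subunits above the floor in colour and dashed lines at 1.5-fold. All but Itgae and Lama2 lie between the dashed lines.

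Several probe sets could be compared for 11 of the 32 genes. For 5 of them (Itga3, Itga6, Lama5, Lamc1 and Nid1) all probe sets above the floor lay on 1 side of 0, and for 6 (Itga4, Itga5, Itga9, Itgb1, Itgb5 and Lamb1) they lay on both sides. The other 21 genes, Itgae and Lama2 among them, had 1 probe set above the floor.

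Markers of cells that carry these receptors and laminins also differed between the arrays, and their part in the results was not tested. Over all genes above the floor, 3.83% were higher and 6.51% lower by the size rule. The 16 skeletal muscle fibre markers had 15 lower and 0 higher, with a median of -1.56. Their summed signal was 1.11 lower on the log2 scale (16.67 and 15.56). Of the fibre laminin and its receptors, Lama2 (-0.60) lay on the same side of 0. Lamb1 (-0.21), Itga7 (-0.13) and Lamc1 (-0.03) were also below 0, but within the probe set SD. Itgb1 (0.14) and Dag1 (0.23) were above 0, also within that SD. Of 6 muscle progenitor markers 2 were lower, Myf5 and Chodl (-0.74), and the summed signal was 10.69 and 10.08. Myf5 read 7.04 and 5.10, the latter under the floor, which itself lay 2.86-fold below the wild-type signal. With the floor at the 60th percentile the count of lower progenitor markers was 1. The 11 leukocyte markers had 4 higher and 0 lower, with a median of 0.48 and a summed signal of 14.81 and 15.29. The 4 were Camp, Coro1a, Ngp and Lyz2, while Ptprc differed by 0.10. Itgb2 and Itgb7 lay on the same side of 0, Itgae on the other, and Itgal differed by only 0.02. The 5 platelet markers had a median of 0.37 with none past the size rule and a summed signal of 11.53 and 11.65, beside Itgb3 at 0.57 and Itga2b at 0.14.

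Epithelial and mesothelial markers were also higher in part, beside Lama3 (0.34) and Lamb3 (0.56). Other genes named above for epithelia were within the probe set SD at their brightest probe sets. They were Itgb4 (0.26), Lama5 (0.24), Itga3 (0.07) and Itga6 (-0.01), while Itgb6 was under the floor. Of 6 mesothelium markers 4 were higher, with a summed signal of 12.72 and 13.42. Of 7 lung epithelium markers 5 were above the floor, 3 of these were higher, and Sftpa1 and Nkx2-1 were under the floor. The summed signal of the lung list was 10.07 and 11.83. The surfactant gene Sftpc read 7.65 and 11.30, a difference of 3.64, and without it the summed signal was 9.77 and 10.13, a difference of 0.36. Of 6 epidermis markers 4 were above the floor, with Krt14 higher (1.49), Krt1 and Krt10 lower (-0.96 and -1.40) and a summed signal of 9.96 and 10.35, while Trp63 and Col17a1 were under it. The median of the 4 was -0.49, with 3 below 0 and 1 above it. The 9 liver markers had 6 higher and 0 lower and a summed signal of 16.25 and 16.77. Summed signals of 8 endothelial markers above the floor and Tie1, under it, were 11.05 and 11.08, with Cldn5 lower (-0.69). The median of the 8 was -0.20, with 5 below 0 and 3 above it. Summed signals were 11.28 and 11.58 for Schwann cell markers, of which Egr2 was under the floor, 15.51 and 15.59 for fibroblast markers, 11.69 and 11.65 for tendon markers and 11.60 on both arrays for smooth muscle and pericyte markers. A sum follows the brightest genes of a list. The medians of these lists were, in the same order, 0.34, 0.03, -0.51 and 0.05. Of the 5 tendon markers, 4 were below 0 and 1 above it. By the size rule the Schwann cell and fibroblast lists had 0 genes in either direction, tendon had 1 higher (Fmod) and 2 lower (Tnmd and Thbs4), and smooth muscle had 1 higher (Myh11).

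Other basement membrane genes past the size rule were all higher. Of 24, 23 were above the floor, and 5 of these were higher and 0 lower (21.7% higher, against 3.83% of all genes), with a median of 0.13. The 5 were Fbln2 (0.75), Ntn4 (0.74), Sparc (0.72), Col18a1 (0.70) and Smoc1 (0.68). The 3 probe sets of Sparc ran from 0.15 to 0.72, and with the mean over probe sets the count was 4. Fbln2 encodes a fibulin that binds nidogen, Ntn4 a netrin that binds laminin gamma chains, Sparc and Smoc1 matricellular proteins, and Col18a1 the collagen that yields endostatin. Without probe sets of the kinds that can match several transcripts or genes, the count was 3. Fbln2 then had no probe set left above the floor, and Col18a1 differed by 0.56. The collagen IV genes of nearly all basement membranes, Col4a1 (-0.05) and Col4a2 (0.09), perlecan (Hspg2, -0.12) and agrin (Agrn, 0.18) were within the probe set SD.

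Among the other laminin receptors and their anchors, 2 were higher and 1 lower by the size rule. Of 18 listed genes 14 were read and 13 were above the floor, all but Sgcd, so 15.4% were higher and 7.69% lower, against 3.83% and 6.51% of all genes, and the median was 0.19. Sgcb, the beta sarcoglycan of the dystrophin complex, read 9.04 and 8.25, 1.73-fold lower (-0.79), and all 3 of its probe sets were lower, from -0.79 to -0.51. Cd151, a tetraspanin that binds laminin-binding integrins, differed by 0.63, with its 5 probe sets from 0.31 to 0.63, and the syndecan Sdc4 also by 0.63. The count of higher genes was 1 with the mean over probe sets, and 1 without probe sets that can match several transcripts. Dystroglycan (Dag1), the main laminin receptor of the fibre besides integrins, read 10.22 and 10.45, a difference of 0.23 with its 4 probe sets from 0.23 to 0.44, and dystrophin (Dmd), which anchors it to actin, read 9.20 and 8.65, a difference of -0.55.

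Among integrin ligands outside the laminins, 1 of 14 above the floor was higher and 1 lower (7.14% each, against 3.83% and 6.51% of all genes), with a median of 0.00099. Vitronectin (Vtn), a plasma protein made by liver, read 11.18 and 12.05 (0.87) beside the higher liver markers. Its 2 probe sets above the floor gave 0.87 and 1.68. Without probe sets that can match several transcripts, the count of higher genes was 0, since Vtn then had no probe set left above the floor. Ccn2, a matricellular growth factor, read 10.21 and 9.54 (-0.67). Fibronectin (Fn1) differed by 0.40 and -0.18 at its 2 probe sets.

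Inside the cell, 1 gene of the integrin adhesion complex stood well past the size rule. Itgb1bp2 encodes melusin, a striated muscle protein that binds the tail of beta1 integrin. It read 11.91 in the sample labelled wild type and 9.80 in that labelled knockout, 4.34-fold lower (-2.12). That value came from 1 probe set above the floor, while Itgb1 itself differed by 0.14. The 16 skeletal muscle fibre markers ran from -2.34 to -0.55, a range that includes the Itgb1bp2 difference. Whether Itgb1bp2 follows fibre content was not tested. Of the 29 listed genes above the floor, 1 was lower (3.45%, against 6.51% of all genes) and 2 were higher (6.90%, against 3.83%), with a median of 0.03. Filamin A (Flna), an actin crosslinker that binds beta tails, read 8.12 and 9.03 (0.91), and talin 1 (Tln1), which activates integrins, gave 0.65 and -0.35 at its 2 probe sets. With the mean over probe sets the count of higher genes was 1, and without probe sets that can match several transcripts the count of lower genes was 2. Kindlin 2 (Fermt2, -0.55), talin 2 (Tln2, -0.44), integrin-linked kinase (Ilk, -0.15), vinculin (Vcl, 0.16) and paxillin (Pxn, 0.29) were within the size rule at their brightest probe sets. The 3 probe sets of Fermt2 ran from -0.77, past the size rule, to 0.36, so that gene has no settled direction.

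**Figure D4:**
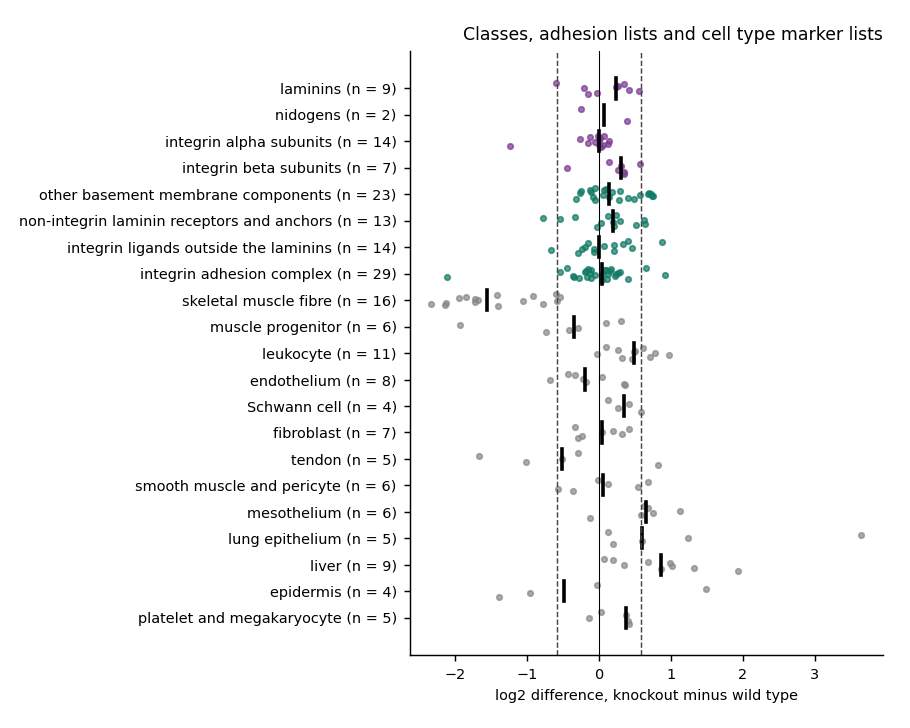
Log2 difference (knockout minus wild type) of each gene above the floor in the 4 classes of integrins, laminins and nidogens (purple), 4 lists of other adhesion genes (green) and 13 lists of cell type markers (grey), with the median of each as a black bar and dashed lines at 1.5-fold. The muscle fibre markers have a median of -1.56, while the class medians lie between -0.01 and 0.30.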

How the data were processed

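Diaphragm RNA of 2 samples was measured on 1 Affymetrix array each. Per the series' design text the authors computed RMA signals, and the submitters' processing notes name Affymetrix Expression Console 1.1. The deposited values are log2 signals of 45101 probe sets, normalised between arrays, so any difference in total mRNA was removed before deposit, and RMA gives no detection call and compresses the differences of dim probe sets.

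Probe sets were named from the platform annotation, where 34945 carried 1 symbol. Those with a mean under the 40th percentile (5.52) were left out, the brightest probe set stood for its gene, and differences were counted at 1.5-fold. All steps ran in Python 3.11.15 (pandas 2.3.3, statsmodels 0.14.6). The size rule and the centring were tested on simulated data, and the other steps were not. The genes described at length were those past the fold, the muscle basement membrane and its receptors, and those whose probe sets disagreed in sign. Other lists are named by their members past the fold, at most 5, and further ones given beside them were picked with their values in view. The members and lists were chosen with earlier results of these data known. The symbol Nov was read as Ccn3.

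Counts past the fold and median differences of the group and the lists were recomputed with a gene's probe sets averaged. They were also recomputed without a floor or with it at the 60th percentile, and after median or loess (fraction 0.3) centring. A further setting left out probe sets ending in _s_at, _x_at or _a_at. The same was done for differences of the group's genes and of the named adhesion list genes past the fold. A 2-fold rule was applied only to the counts of the group and of all genes.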

Additional observations from a re-analysis of the deposited data

How the results depend on the processing

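Of the 32 genes, Lamc1 alone moved by more than the probe set SD, to -0.32 with the mean over probe sets. Itgae and Lama2, the called genes, each had 1 probe set above the floor. Averaging, other floors and leaving out probe set kinds could therefore keep or remove their values but not change them. The count of lower genes rested on Itgae and Lama2. It was 1 (Lama2) with the floor at the 60th percentile, which left 24 of the genes, and 1 (Lama2) without probe sets ending in _s_at, _x_at or _a_at, which left 26 of them. It was 1 (Itgae) with loess centring and 1 (Itgae) at 2-fold, where 2.31% of all genes were lower. The count of higher genes was 1 (Itgam) with no floor. The laminin median was -0.03 without those probe set kinds and 0.11 with no floor. The nidogen median was -0.25 without those probe set kinds, since Nid1 alone was left. Without those kinds the counts of higher genes were 3 for other basement membrane genes, 1 for non-integrin laminin receptors and 0 for integrin ligands, and 2 genes of the adhesion complex were lower. Vtn and Fbln2 had no probe set left above the floor in that setting. With the mean over probe sets, the counts of higher genes were 1 for non-integrin laminin receptors and 1 for the adhesion complex. No paired analysis was possible because each genotype had 1 array. Dim genes are limited by background, since RMA compresses their differences.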
